A study of Homo sapiens with 6 samples.

Results

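A set of 10 genes of bone morphogenetic protein (BMP) signalling were followed in HCT116 cells, a human colorectal carcinoma line: the ligand gene BMP4, the receptor genes BMPR1A and BMPR2, the signal transducers SMAD1 and SMAD5, the inhibitory SMAD6 and SMAD7, and the response genes ID1, ID2 and ID3. They were taken by symbol from a table of 59251 gene symbols. All 10 had a row, and all 10 were among the 14808 genes that passed the filter on low counts. The study compared wild-type cells (WT, 3 RNA libraries) with cells edited by CRISPR/Cas9 to carry the N106S change on both eIF6 alleles (MUT, 3 RNA libraries). eIF6 binds the large ribosomal subunit and keeps it from joining the small one. The study asks what happens when ribosomal subunits are held as inactive 80S particles. The labels give no other treatment for either group, and do not say whether the replicates were separate cultures or how many edited clones the MUT libraries represent, so the p-values reflect only how far these libraries scatter, which may be technical.

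BMP ligands such as BMP4 bring type I receptors (BMPR1A) and type II receptors (BMPR2) together on the cell surface, and the type I receptor then phosphorylates SMAD1 and SMAD5. These join SMAD4, enter the nucleus and switch on response genes, among them ID1, ID2 and ID3, whose proteins bind basic helix-loop-helix (bHLH) transcription factors and keep them off DNA. SMAD6 and SMAD7 are themselves induced by the pathway and damp it. In the intestine, BMP signalling is known for holding back stem cell renewal in the crypt and favouring differentiation towards the villus.

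The genes were chosen by their measured expected counts in these same WT and MUT libraries, as well as by their role in the pathway. The MUT to WT differences of the 10 genes are therefore given as a description with no test of their own. Levels are in CPM, counts relative to the library size, as scaled by TMM, a factor that centres the libraries on the bulk of genes. A fold change is the log2 of MUT over WT from an edgeR quasi-likelihood fit of all genes with its standard error (SE), and a gene was called when its Benjamini-Hochberg adjusted p over all tested genes was below 0.05. In that fit 283 of 14808 genes were called, or 1.91%, of which 146 (0.986%) were higher and 137 (0.925%) lower in MUT. With library size alone as the scaling, 95 were higher and 13 lower, and the median log2 fold change of all genes moved from -0.01 to 0.54. The groups' CPM values did not overlap for 26.1% of all genes, with MUT above WT for 12.8% and below for 13.4%. Because RNA was measured in bulk, fewer cells expressing a gene and less RNA per cell cannot be told apart.

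The libraries held 53986494 to 87656970 counts. The 4 abundant noncoding RNA species (7SL, 7SK, RPPH1 and RMRP) took 62.7% to 84.0% of them, which left 10252501 to 21984081 counts. MUT replicate 2 stood apart, with the lowest share of these RNAs (62.7%), 3.91% ribosomal RNA and the largest TMM factor (1.68). WT replicate 1 held 1.16% ribosomal RNA and the other 4 libraries 0.0891% to 0.234%. The summed level of 11 markers of colorectal epithelial cells was 412 to 453 CPM in WT and 453 to 500 CPM in MUT, most of it from KRT8, KRT18 and KRT19. EPCAM had a mean of 9.51 CPM in WT and 7.52 in MUT (log2 fold change -0.34, SE 0.11), and CDH1 0.702 and 0.295 CPM (-1.23, SE 0.37). Both were lower in every MUT library than in any WT library, and neither was called. KRT8 went the other way, with a mean of 119 CPM in WT and 149 in MUT (log2 fold change 0.32, SE 0.14). It was higher in every MUT library than in any WT library and was not called. Of the 7 epithelial markers tested, 4 had a log2 fold change above 0 and 3 below, and 0 were called. VIL1 and CDX1 had at most 6 and 3 counts in any library, and CEACAM5 was at 0. Fibroblast, endothelial and blood markers each summed to 3.12 CPM or less in every library, with the blood sum carried mostly by HBA1 (0.764 to 1.96 CPM) while PTPRC, CD3E and HBB were at 0. EIF6, the edited gene, was at 43.3, 47.9 and 47.4 CPM in WT and 36.7, 30.7 and 35.7 CPM in MUT (log2 fold change -0.43, SE 0.12, adjusted p = 0.110 by edgeR, 0.0492 to 0.885 over the alternatives). A gene's total count does not show the substitution, so it does not check the genotype labels.

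BMP4 and ID3 had less RNA in MUT (2.08-fold for BMP4 and 1.92-fold for ID3). They were the 2 of the 10 genes called, against 1.91% of all tested genes called and 0.925% called lower. These calls are no test of the 2 genes, since the same contrast chose them. The receptors and SMAD1 and SMAD5 differed little, ID1 and ID2 lay lower by smaller steps, and the inhibitory SMADs lay on opposite sides, SMAD6 lower and SMAD7 higher in MUT. Of the 10 genes, 8 had a log2 fold change below 0 and 2 above 0, with a median of -0.26. The median of all tested genes was -0.01, and 51.3% of them were below 0. The groups' CPM values did not overlap for 5 of the 10, with MUT below WT for BMP4, ID2, ID3 and SMAD6 and above it for SMAD7. These counts are beside the background of 1.91% called and 26.1% not overlapping, and nothing is read from them since the same contrast chose the genes.

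**Figure D1:**
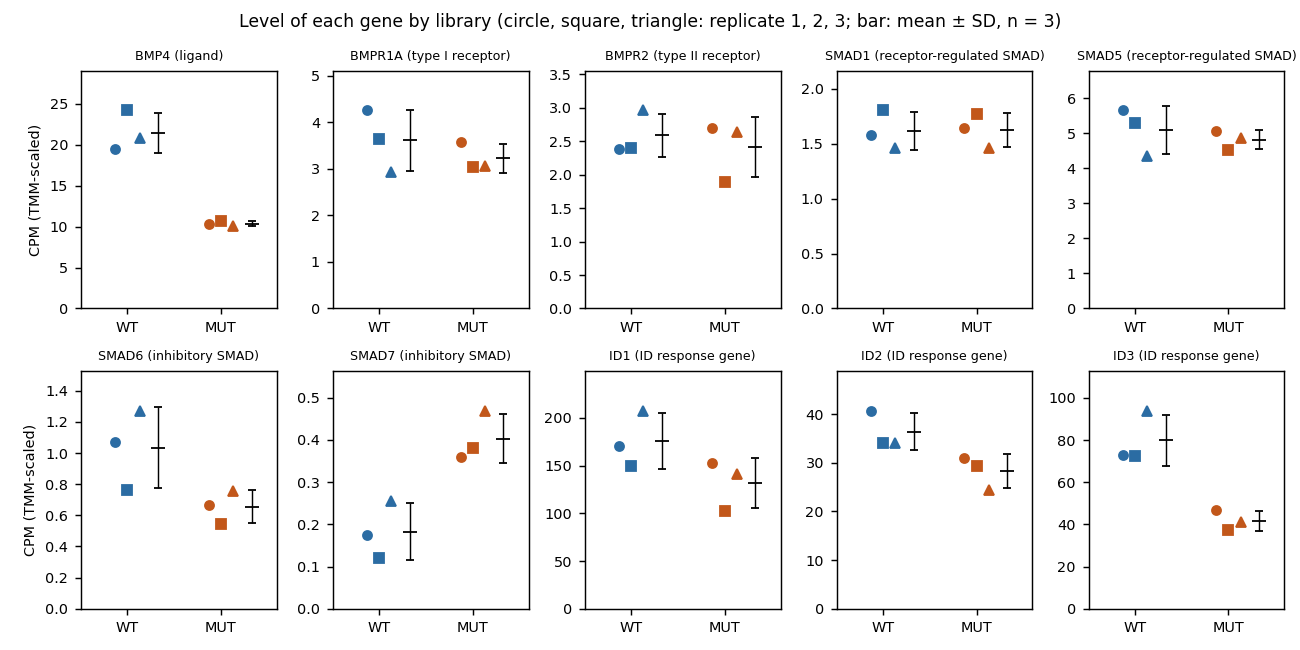
Level of each of the 10 genes in CPM (vertical axes, linear, from 0) in the 3 WT and 3 MUT libraries; circles, squares and triangles are replicates 1, 2 and 3, and bars give the mean ± SD (n = 3). The MUT points of BMP4 lie near 10.4 CPM and those of ID3 near 41.6 CPM, below all WT points, while the points of BMPR1A, BMPR2, SMAD1, SMAD5 and ID1 overlap between the groups.

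The stretches just upstream of the start sites of BMP4 and the ID genes are shown here, because these 4 genes are the most abundant of the set and BMP4 and ID3 were lower together. All 10 genes matched an entry of the RefSeq promoter table (GRCh38.p14), and the 250 bases before the start site are printed on the gene's strand, 5′ to 3′. Capitals mark GGCGCC and GGAGCC (reverse complement GGCTCC), the GC-rich elements known for SMAD1 and SMAD5, and CAGAC (reverse complement GTCTG), the element known for SMAD proteins in general. BMP4 lies at chr14:53955051-53955300 on the minus strand, ID1 at chr20:31605039-31605288 on the plus strand, ID2 at chr2:8681806-8682055 on the plus strand and ID3 at chr1:23559502-23559751 on the minus strand. The BMP4 stretch falls inside the annotated gene span, since the table's start site is not the outermost one.
BMP4: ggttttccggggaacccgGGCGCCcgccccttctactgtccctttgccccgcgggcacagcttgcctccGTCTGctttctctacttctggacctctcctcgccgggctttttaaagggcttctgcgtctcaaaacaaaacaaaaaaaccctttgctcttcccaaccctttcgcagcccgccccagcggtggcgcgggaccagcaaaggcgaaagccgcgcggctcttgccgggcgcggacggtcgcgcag
ID1: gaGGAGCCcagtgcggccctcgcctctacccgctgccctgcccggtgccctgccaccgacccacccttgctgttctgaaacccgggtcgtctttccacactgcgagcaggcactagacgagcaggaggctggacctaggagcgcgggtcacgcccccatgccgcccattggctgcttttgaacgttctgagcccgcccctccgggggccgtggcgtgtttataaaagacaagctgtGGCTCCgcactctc
ID2: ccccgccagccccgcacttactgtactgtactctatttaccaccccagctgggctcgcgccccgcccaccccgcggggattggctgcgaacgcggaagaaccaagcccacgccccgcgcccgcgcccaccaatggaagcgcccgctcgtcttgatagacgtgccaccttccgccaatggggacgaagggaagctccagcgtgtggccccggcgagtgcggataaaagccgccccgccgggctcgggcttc
ID3: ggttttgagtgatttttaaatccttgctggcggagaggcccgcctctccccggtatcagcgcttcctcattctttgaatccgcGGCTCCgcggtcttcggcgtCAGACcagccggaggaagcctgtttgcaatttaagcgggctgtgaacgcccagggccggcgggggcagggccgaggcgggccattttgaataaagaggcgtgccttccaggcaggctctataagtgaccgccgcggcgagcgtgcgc

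The BMP4 stretch held GGCGCC starting 232 bases before the start site and CAGAC at 181 bases. ID3 held GGAGCC at 167 bases and CAGAC at 147 bases. ID1 held GGAGCC at 248 and at 14 bases and no CAGAC, and ID2 held none of the 3 elements in this window. TATAAA, the core of a TATA box, overlapped itself on both strands in ID1 at 33 and 31 bases and was not in the other 3 stretches. Searched on both strands of 35116 promoters of the same length, GGCGCC was in 16.4%, GGAGCC in 30.6%, CAGAC in 38.0% and TATAAA in 10.7%. A match describes letters, not a bound site. The GC content was 63.6% for BMP4, 66.0% for ID1, 69.2% for ID2 and 62.0% for ID3, against a median of 58.0% over all promoters.

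Among the other 6 genes, GGAGCC was found in the upstream stretches of SMAD5 (at 138 and 23 bases), SMAD6 (at 124, 110 and 26 bases) and BMPR2 (at 232 bases). CAGAC was found in those of SMAD7 (at 217 and 128 bases) and BMPR2 (at 103 and 18 bases). BMPR2 also held GGCGCC at 147 bases. SMAD1 and BMPR1A held none of the 3 elements, and BMPR1A held TATAAA at 28 bases. The SMAD1 stretch (chr4:145481056-145481305) falls inside the annotated gene span, as that of BMP4 does.

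BMP4 (chr14:53949736-53956891, minus strand) encodes the ligand of the set. It was at 19.5, 24.2 and 20.8 CPM in WT and at 10.3, 10.7 and 10.1 CPM in MUT. All 3 MUT libraries were below all 3 WT libraries, and the MUT values were close together. The means were 21.5 ± 2.46 and 10.4 ± 0.313 CPM (SD, n = 3 each), a log2 fold change of -1.05 (SE 0.12), or 2.08-fold lower in MUT. Leaving out each library in turn gave -1.10 to -0.93, and BMP4 stayed called in 3 of these 6 fits. It was not called without WT replicate 2, MUT replicate 1 or MUT replicate 3, fits in which only 27 to 40 genes of the whole table were called. In 18 of 18 settings, all fitted to the libraries that chose the genes or to some of them, its fold change was below the median of all genes. As length-normalised FPKM without TMM scaling, BMP4 was at 8.90, 15.6 and 8.30 in WT and 5.83, 9.96 and 6.52 in MUT, where the groups overlapped through MUT replicate 2.

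The nearest tested protein-coding genes on either side of BMP4 had log2 fold changes of -0.02 (DDHD1, SE 0.25, adjusted p = 0.980 by edgeR, 0.415 to 0.997 over the alternatives) and 0.18 (CDKN3, SE 0.20, adjusted p = 0.687, 0.291 to 0.853). Neither was called, and both overlapped between the groups. DDHD1 lay 796 kb and CDKN3 440 kb from BMP4. Of the other 12 BMP family ligand genes listed, 4 passed the filter on low counts and 0 were called by edgeR (0 at an unadjusted p below 0.05, and 0 by DESeq2). BMP7 was at 0.970, 1.23 and 1.62 CPM in WT and 1.25, 0.934 and 1.32 CPM in MUT (log2 fold change -0.11, SE 0.24). BMP8A and BMP8B had values of -0.57 (SE 0.42) and -0.38 (SE 0.30). The 8 others, including BMP2, had at most 5 counts in any library and were not tested. Per length, BMP7 had 0.270 ± 0.0755 FPKM in WT and 0.353 ± 0.0473 in MUT, against 10.9 ± 4.04 and 7.44 ± 2.21 FPKM for BMP4 (SD, n = 3 each).

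BMPR1A (chr10:86755763-86932844), the type I receptor, was at 4.26, 3.63 and 2.94 CPM in WT and 3.58, 3.03 and 3.07 CPM in MUT. BMPR2 (chr2:202376327-202567749), the type II receptor, was at 2.39, 2.40 and 2.96 CPM in WT and 2.70, 1.89 and 2.63 CPM in MUT. The groups overlapped for both. The log2 fold changes were -0.17 (SE 0.16) for BMPR1A and -0.10 (SE 0.18) for BMPR2. Intervals of 2 SE ran from -0.48 to 0.15 and from -0.46 to 0.26. Within each library BMP4 counts per BMPR1A count were 4.57, 6.67 and 7.07 in WT and 2.87, 3.53 and 3.28 in MUT. BMP4 counts per ID1 count were 0.114, 0.161 and 0.10 in WT and 0.0674, 0.104 and 0.0716 in MUT. The ratio to BMPR1A was lower in every MUT library, and the ratio to ID1 overlapped between the groups. Both are descriptions, since the same counts chose the genes.

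The other receptor and coreceptor genes gave no called gene. Of 9 listed, 5 were tested, 0 were called by edgeR and 0 by DESeq2, and 1 had an unadjusted p below 0.05. RGMB, a coreceptor for BMP ligands, was at 2.45, 2.0 and 2.04 CPM in WT and 1.70, 1.31 and 1.81 CPM in MUT, with MUT below WT in all libraries (log2 fold change -0.43, SE 0.18, adjusted p = 0.231 by edgeR, 0.188 to 0.912 over the alternatives). The type II receptors ACVR2A and ACVR2B had values of -0.06 (SE 0.33) and 0.09 (SE 0.23).

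SMAD1 (chr4:145480770-145559176) and SMAD5 (chr5:136132845-136182733) carry the signal from the receptor. SMAD1 was at 1.58, 1.80 and 1.46 CPM in WT and 1.64, 1.77 and 1.46 CPM in MUT. SMAD5 was at 5.66, 5.29 and 4.35 CPM in WT and 5.06, 4.53 and 4.88 CPM in MUT. The groups overlapped for both genes. The log2 fold changes were 0.00 (SE 0.17, 2 SE interval -0.34 to 0.35) and -0.09 (SE 0.13, 2 SE interval -0.34 to 0.17). SMAD1 counts per SMAD5 count were 0.318 ± 0.0343 in WT and 0.338 ± 0.0471 in MUT (SD, n = 3 each), a difference smaller than the spread. SMAD4, the shared partner, and SMAD9, a close relative of SMAD1, had log2 fold changes of -0.07 (SE 0.15) and 0.01 (SE 0.35) and were not called (0 of 2 by edgeR, 0 at an unadjusted p below 0.05, and 0 by DESeq2).

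SMAD6 (chr15:66702236-66782849) and SMAD7 (chr18:48919853-48950965, minus strand) encode the inhibitory SMADs. SMAD6 was at 1.07, 0.762 and 1.27 CPM in WT and 0.666, 0.544 and 0.754 CPM in MUT. SMAD7 was at 0.174, 0.12 and 0.255 CPM in WT and 0.360, 0.380 and 0.469 CPM in MUT. All MUT values lay below WT for SMAD6, narrowly at the nearest pair, and above WT for SMAD7. The log2 fold changes were -0.66 (SE 0.26) and 1.17 (SE 0.40), the latter a 2.25-fold higher level in MUT. Neither gene was called in any of the 15 settings that tested it. Both rested on few counts, 74, 57 and 55 in WT and 50, 53 and 45 in MUT for SMAD6, and 12, 9 and 11 in WT and 27, 37 and 28 in MUT for SMAD7.

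SMAD7 lay near the filter's minimum count of 10 in WT and above it in all MUT libraries, so it could enter the test through MUT alone. A ratio of the pair within a library sets a gene that lay higher in MUT over one that lay lower, so its separation follows from their choice and supports nothing. SMAD7 counts per SMAD6 count were 0.162, 0.158 and 0.200 in WT and 0.540, 0.698 and 0.622 in MUT. The ratio carries the counting error of 9 to 37 SMAD7 counts per library.

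**Figure D2:**
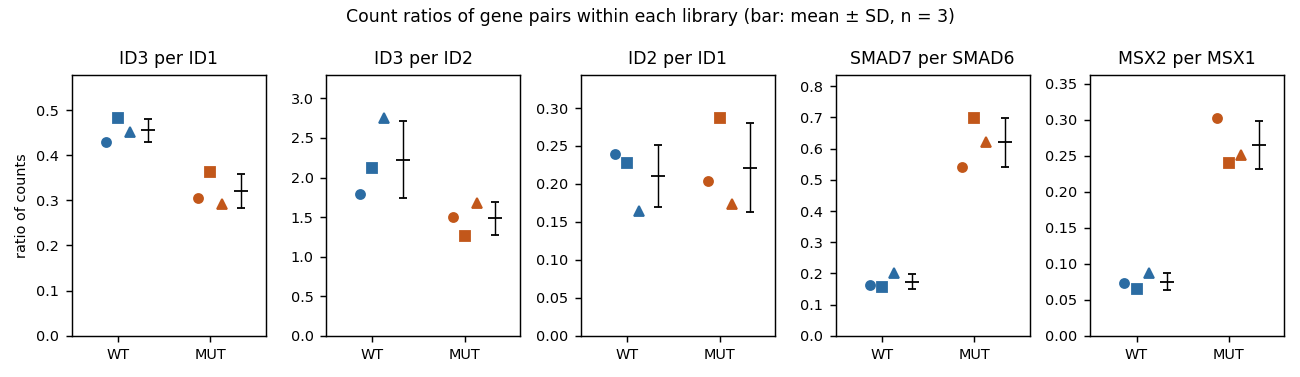
Ratio of the counts of 2 genes within each library (vertical axes, linear, from 0) for ID3 per ID1, ID3 per ID2, ID2 per ID1, SMAD7 per SMAD6 and MSX2 per MSX1, in WT and MUT libraries; circles, squares and triangles are replicates 1, 2 and 3, and bars give the mean ± SD (n = 3). ID3 per ID1 was 0.455 in WT and 0.320 in MUT on average, and ID2 per ID1 overlapped between the groups. The ratios pair genes whose differences were already known, so they describe these libraries and are no further evidence of those differences.

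ID3 (chr1:23557926-23559501, minus strand), an inhibitor of bHLH factors, was at 73.1, 72.3 and 94.0 CPM in WT and 46.7, 37.2 and 41.0 CPM in MUT. All MUT libraries were below all WT libraries, with WT replicate 3 the highest. The means were 79.8 ± 12.3 and 41.6 ± 4.79 CPM (SD, n = 3 each), a log2 fold change of -0.94 (SE 0.16), or 1.92-fold lower in MUT. Leaving out each library in turn gave -1.03 to -0.80, below the median of all genes in each fit. ID3 was called in 1 of these 6 fits, the one without MUT replicate 2, and in 9 of 18 settings in all. In FPKM, ID3 was at 65.8, 89.2 and 72.6 in WT and 50.01, 70.2 and 51.8 in MUT, where MUT replicate 2 overlapped the lowest WT library. Its neighbours E2F2 and RPL11 had log2 fold changes of -0.32 (SE 0.14, adjusted p = 0.234 by edgeR, 0.235 to 1.0 over the alternatives) and -0.29 (SE 0.25, adjusted p = 0.598, 0.166 to 0.916). Neither was called. E2F2, 26.7 kb from ID3, was lower in every MUT library than in any WT library. RPL11, 132 kb away, overlapped between the groups.

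ID1 (chr20:31605289-31606510), the ID gene with the highest level per length, was at 170.3, 150.0 and 208 CPM in WT and 153, 102 and 141 CPM in MUT. The groups overlapped, since MUT replicate 1 was above WT replicate 2. The means were 176 ± 29.3 and 132 ± 26.2 CPM (SD, n = 3 each), a log2 fold change of -0.42 (SE 0.21), and ID1 was not called in any of 18 settings. MUT replicate 2 was the lowest library, and without it the value was -0.24. With library size alone as the scaling the direction turned to 0.11, still below the median of all genes in that fit, 0.54. The direction also turned in the 3 TPM settings (0.18 in each), and ID1 was below the median of all genes in 17 of 18 settings. The CPM of ID1 ran beside the share of the abundant noncoding RNAs, which was 81.1%, 74.3% and 84.0% in WT and 80.9%, 62.7% and 79.5% in MUT. WT replicate 3 was highest and MUT replicate 2 lowest in both. The part of that share in the ID1 difference was not tested.

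ID1 lies 3.67 Mb from EIF6, the edited gene, on chromosome 20 (EIF6 at 35278906 to 35284772). Of the tested protein-coding neighbours of ID1, HM13, 35.7 kb away, was not called (log2 fold change 0.07, SE 0.11, adjusted p = 0.785 by edgeR, 0.329 to 0.978 over the alternatives). BCL2L1, the gene of an anti-apoptotic BCL2 relative 57.9 kb away on the other side, was at 21.4, 21.6 and 15.7 CPM in WT and 33.2, 34.1 and 37.0 CPM in MUT. All MUT libraries were above all WT libraries, opposite to ID1. The log2 fold change of BCL2L1 was 0.83 (SE 0.15, adjusted p = 0.0303 by edgeR). Over the alternatives the adjusted p ran from 2.55e-05 to 0.651, and with 1 library left out BCL2L1 was called only without MUT replicate 2.

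ID2 (chr2:8682056-8684461), the third ID gene, was at 40.7, 34.1 and 34.2 CPM in WT and 31.1, 29.4 and 24.4 CPM in MUT. All MUT libraries were below all WT libraries by a small margin. The means were 36.3 ± 3.80 and 28.3 ± 3.44 CPM (SD, n = 3 each), a log2 fold change of -0.36 (SE 0.14). ID2 was not called in any of 18 settings. Leaving out each library gave -0.44 to -0.25, and library size alone turned the direction to 0.20, below the median of all genes of 0.54. The TPM settings gave 0.23 to 0.25, and ID2 was below the median of all genes in 17 of 18 settings. Its neighbours RNF144A and KIDINS220 had log2 fold changes of -0.58 (SE 0.23, adjusted p = 0.214 by edgeR, 0.171 to 0.999 over the alternatives) and -0.15 (SE 0.29, adjusted p = 0.831, 0.505 to 0.965). RNF144A lay 1605.7 kb and KIDINS220 36.6 kb from ID2. RNF144A was lower in every MUT library than in any WT library, KIDINS220 overlapped between the groups, and neither was called.

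Ratios of the ID genes within a library use no scaling between libraries. They come from the counts that chose the genes and are given as a description. ID3 counts per ID1 count were 0.429, 0.482 and 0.452 in WT and 0.306, 0.363 and 0.291 in MUT. ID3 per ID2 was 1.80, 2.12 and 2.75 in WT and 1.504, 1.27 and 1.68 in MUT. Both ratios were lower in every MUT library than in any WT library. ID2 per ID1 was 0.210 ± 0.0402 in WT and 0.221 ± 0.0586 in MUT and overlapped. Of the summed ID1, ID2 and ID3 counts, ID3 made up 27.3% ± 1.36 in WT and 20.7% ± 1.13 in MUT, and ID1 60.1% ± 1.69 and 65.0% ± 3.97 (SD, n = 3 each). The summed level of the 3 genes was 284, 256 and 336 CPM in WT and 230.4, 169 and 206 CPM in MUT. ID4, the remaining family gene, had 1 to 9 counts per library and was not tested.

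**Figure D3:**
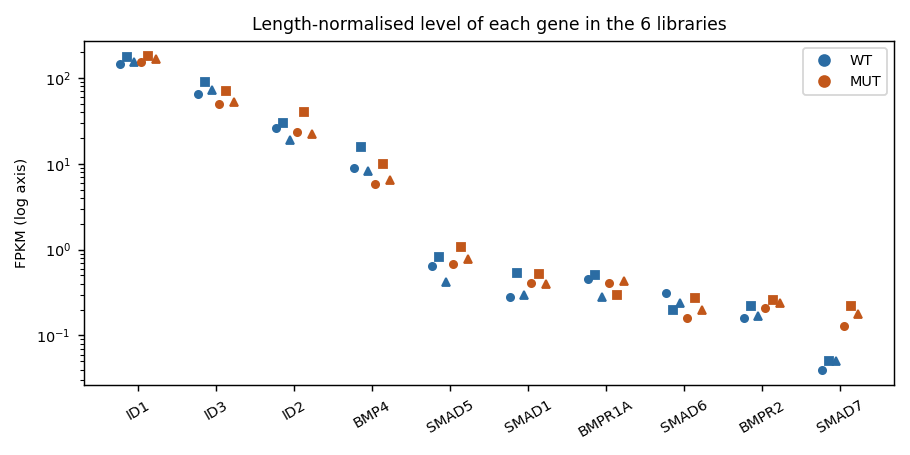
Length-normalised level in FPKM (vertical axis, log scale) of the 10 genes in each library, ordered by their mean over the 6 libraries; blue is WT, orange MUT, and circles, squares and triangles are replicates 1, 2 and 3. ID1, ID3, ID2 and BMP4 hold the top 4 places in every library, and SMAD7 is last in every library.

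Per transcript length, the 10 genes fell into a high and a low group. On the FPKM scale, over all 6 libraries, ID1 had a mean of 162 (range 145 to 178), ID3 66.6 (50.01 to 89.2), ID2 26.8 (18.9 to 39.7) and BMP4 9.18 (5.83 to 15.6). The ranges of these 4 neighbours in the order did not overlap. SMAD5 followed at 0.732 FPKM (0.420 to 1.06) and came next in every library, although its range overlapped that of SMAD1 at 0.408 FPKM (0.280 to 0.540). BMPR1A at 0.397, SMAD6 at 0.230 and BMPR2 at 0.210 FPKM overlapped their neighbours in the order. SMAD7 was last in every library at 0.112 FPKM (0.0400 to 0.220), with a range that overlapped that of BMPR2. FPKM values are relative to all fragments, including the abundant noncoding RNAs. On that scale the mean of ID1 was 157 in WT and 167 in MUT, and that of ID2 25.1 and 28.5, with overlap for both.

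**Figure D4:**
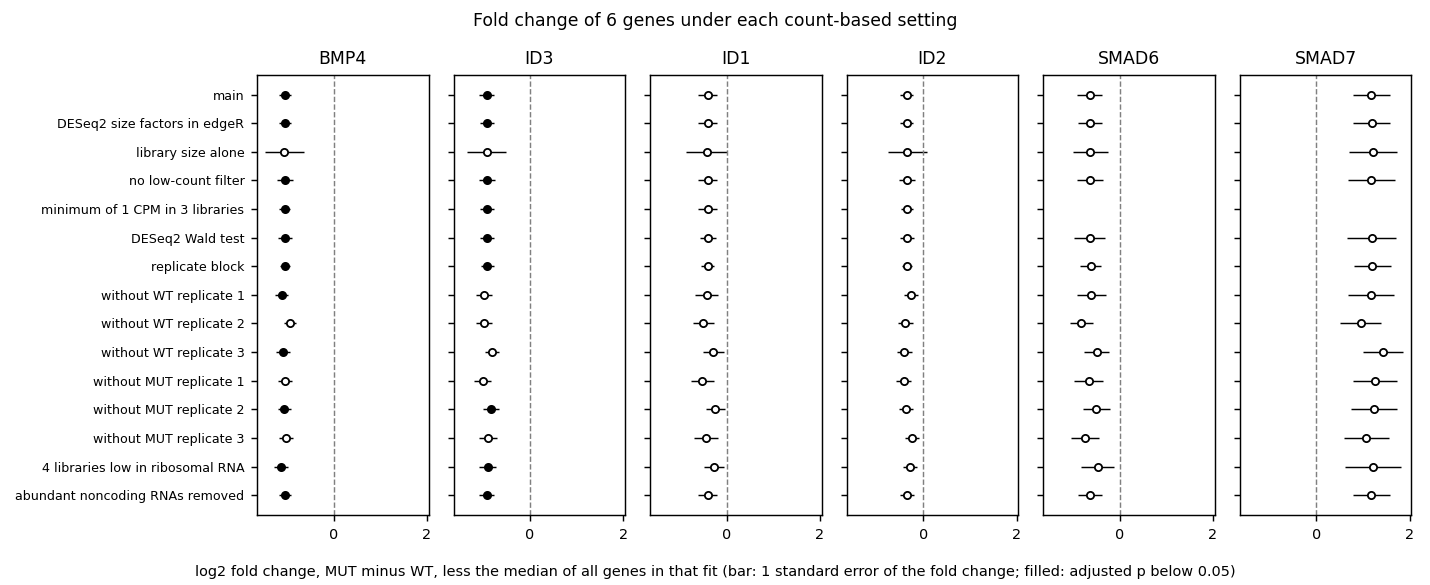
Log2 fold change of 6 genes (horizontal axes, MUT minus WT, less the median of all genes in the same fit) under each count-based setting (vertical axis); bars are 1 SE and filled points mark an adjusted p below 0.05. BMP4 and ID3 lie left of 0 in every setting shown while their calls come and go, and SMAD7 lies right of 0 without a call. SMAD6 and SMAD7 have no point under the minimum of 1 CPM.

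Every setting used all or some of the libraries that chose the genes, so agreement between settings is no further evidence. BMP4 and ID3 were lower in MUT under every setting, while their calls depended on it. Both were called with DESeq2's size factors in edgeR (1.92% of all tested genes called), every gene kept whatever its count (4.07%), at least 1 CPM required in 3 libraries (4.66%), the DESeq2 Wald test (5.14%), the replicate number as a block (2% of genes), the abundant noncoding RNAs removed (1.82%) and the 4 libraries low in ribosomal RNA (2.66%). Both were also called without MUT replicate 2 (2.9%). BMP4 alone was called without WT replicate 1 (0.196%) and without WT replicate 3 (0.392%). Neither was called without WT replicate 2 (0.177%), MUT replicate 1 (0.262%) or MUT replicate 3 (0.26%). Library size alone (0.729% of all genes called), limma on log2(TPM + 1) with and without a minimum (0% each) and limma on log2(TPM + 0.1) (0.28%) called neither.

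The rest of the BMP pathway gave few called genes. Across 70 listed genes outside the set, 41 were tested and 3 were called, 2 higher (MSX2 and FSTL3) and 1 lower (MSX1). That is 7.32% of those tested, against 1.91% of all tested genes. The lists were chosen with earlier results of these data known, so nothing is read from this share. Of the 41, 21 had a log2 fold change above 0 and 20 below, with a median of 0.01, against -0.01 for all tested genes. The groups did not overlap for 17.1% of the 41, against 26.1% of all. With 1 library left out, 0 of these genes were called in 4 of 6 fits (3 to 6 at an unadjusted p below 0.05 in edgeR), 1 without WT replicate 3 and 3 without MUT replicate 2.

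**Figure D5:**
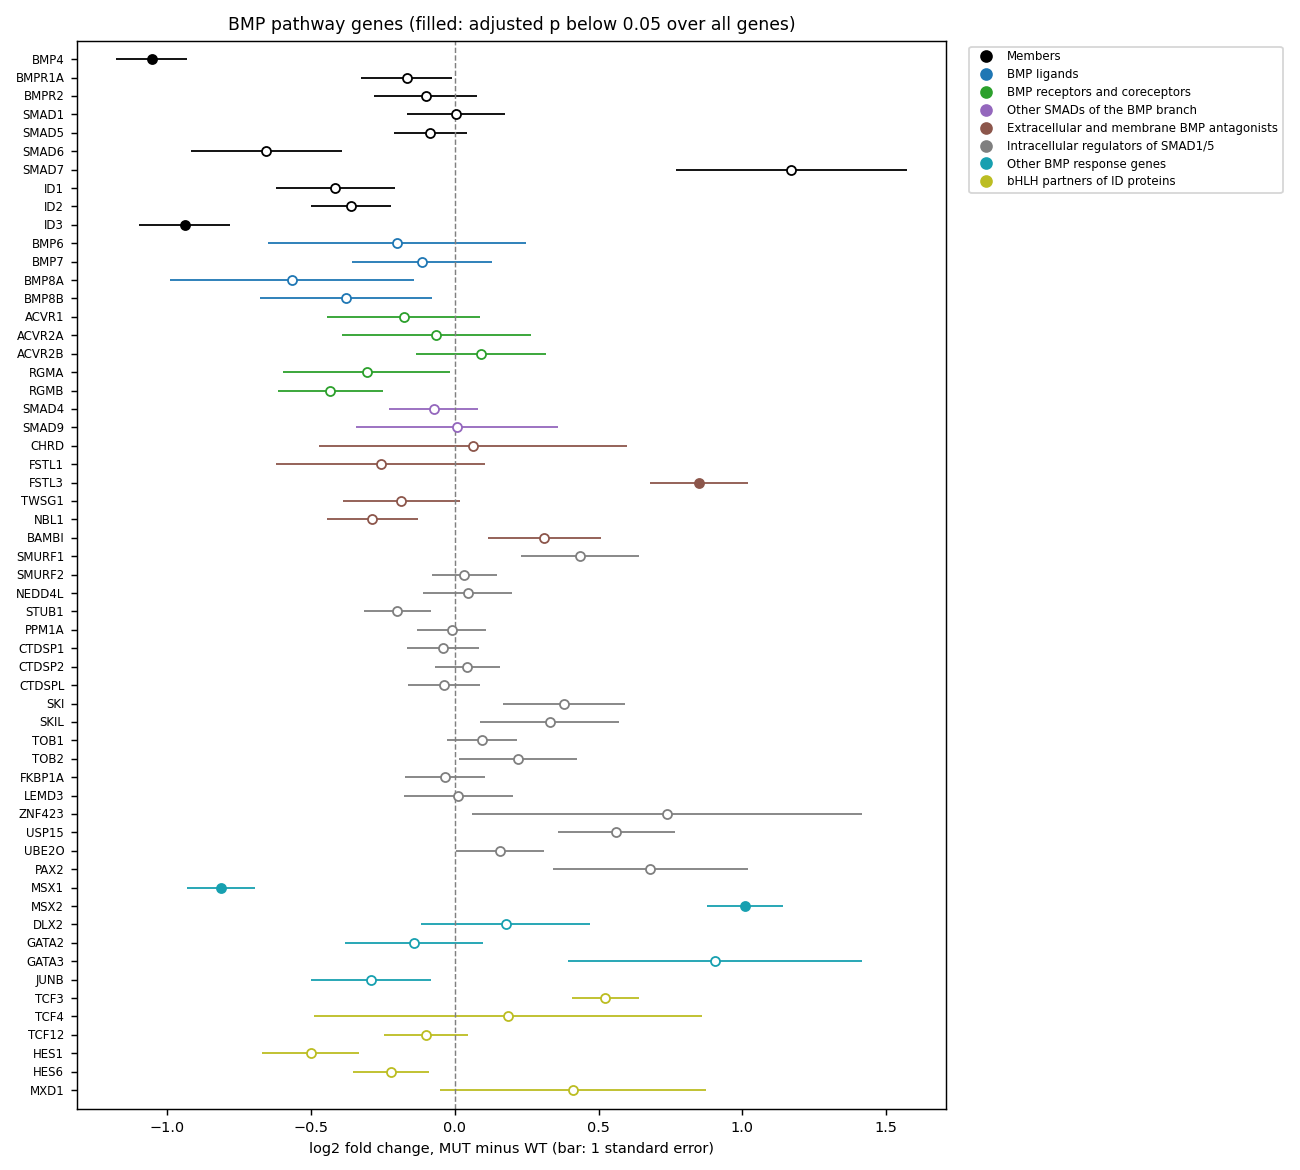
Log2 fold change, MUT minus WT (horizontal axis, bars 1 SE), of the 10 genes and of the tested genes of 7 BMP pathway lists (vertical axis, coloured by list); filled points have an adjusted p below 0.05 over all genes. Filled points outside the set are FSTL3, MSX1 and MSX2, and most receptors and SMADs lie near 0.

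MSX1 and MSX2, homeobox genes known as BMP targets, moved in opposite directions. MSX1 was at 25.9, 26.6 and 23.2 CPM in WT and 13.1, 14.7 and 15.3 CPM in MUT. MSX2 was at 1.88, 1.72 and 2.04 CPM in WT and 3.97, 3.52 and 3.84 CPM in MUT. MSX1 was lower and MSX2 higher in every MUT library than in any WT library. The log2 fold changes were -0.81 for MSX1 (SE 0.12, adjusted p = 0.0182 by edgeR, 6.05e-06 to 0.805 over the alternatives) and 1.01 for MSX2 (SE 0.13, adjusted p = 0.0112, 4.62e-06 to 0.651). With 1 library left out, MSX1 was called only without MUT replicate 2, and MSX2 without WT replicate 3 or MUT replicate 2. MSX2 counts per MSX1 count were 0.0726, 0.0647 and 0.0878 in WT and 0.302, 0.239 and 0.252 in MUT. Of the 16 other BMP response genes listed, 8 were tested and these 2 were called. JUNB, named for its abundance, had a log2 fold change of -0.29 (SE 0.21) and was not called (adjusted p = 0.496 by edgeR, 0.263 to 0.857).

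Of 15 listed antagonists outside or on the cell, 6 were tested and 1 was called. FSTL3, which binds activins and some BMP relatives, was at 1.81, 2.16 and 1.48 CPM in WT and 3.22, 3.03 and 3.67 CPM in MUT. All MUT libraries were above all WT libraries (log2 fold change 0.85, SE 0.17, adjusted p = 0.0437 by edgeR, 0.000372 to 0.651 over the alternatives). The call held with 1 library left out only without MUT replicate 2, and it was lost with the replicate number as a block. NBL1 and TWSG1, 2 secreted BMP binders, had values of -0.29 (SE 0.16) and -0.19 (SE 0.20) and were not called. The antagonist genes NOG and GREM1 had at most 3 and 5 counts per library and were not tested.

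Inside the cell, 18 of 19 listed regulators of SMAD1 and SMAD5 were tested and 0 were called by edgeR (1 at an unadjusted p below 0.05, and 0 by DESeq2). Of these, 13 had log2 fold changes above 0 and 5 below, with a median of 0.07. FKBP1A, which binds type I receptors, was at -0.03 (SE 0.14), and the ubiquitin ligase genes STUB1 and SMURF2 were at -0.20 (SE 0.12) and 0.03 (SE 0.11). Of 8 listed bHLH genes that ID proteins bind or act beside, 6 were tested and 0 were called by edgeR (2 at an unadjusted p below 0.05, and 1 by DESeq2). TCF3, which encodes the E proteins that ID proteins bind, was at 11.3, 11.8 and 13.1 CPM in WT and 17.3, 18.4 and 16.3 CPM in MUT. All MUT values were above all WT values, but the adjusted p of 0.0576 by edgeR missed the threshold (log2 fold change 0.52, SE 0.12, 0.00804 to 0.651 over the alternatives), and TCF3 passed it when MUT replicate 2 was left out. TCF12 and HES6 had values of -0.10 (SE 0.15) and -0.22 (SE 0.13).

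The genes whose log2 CPM over the 6 libraries was most like that of BMP4, among 4534 genes whose log2 CPM averaged 2 or more, were SYTL3 (Pearson r 0.999), GALK1 (0.998), MRPS16 (0.997), PRDX4 (0.995) and SLC25A5 (0.994). All 5 had smaller steps than BMP4, with log2 fold changes of -0.64 to -0.39, and 154 genes reached an r above 0.95. Those most like ID1 were MAN2A1 (0.998), RN7SL752P (0.997), TBCD (0.996), RN7SL128P (0.996) and RN7SK (0.995), and 79 genes reached an r above 0.95. Among the 5 most like ID1, 3 are genes or copies of the 7SL and 7SK small RNAs, whose single values are uncertain because near-identical copies share reads. The 6 points share 2 groups, the sequencing depths and the TMM factors, so these are descriptions over few libraries.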

How the data were processed

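RNA of 3 WT and 3 MUT libraries was analysed, and the ribosome profiling of the series is not analysed here. Per the labels, RNA was extracted with phenol-chloroform and libraries were prepared with an NEB Ultra II kit. The table of expected counts that the authors deposited held whole numbers, so rounding changed none. FPKM and TPM, deposited by the authors and normalised for depth and length, served for levels and for alternatives. Tools listed in the submitters' processing notes are STAR 2.5.2b, RSEM 1.2.28, FastQC 0.12.1 and DESeq2 1.42.0, with the build GRCh38 (hg38), and their roles are not given in the sources used here.

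Counts were fitted in R 4.3.3 with edgeR 4.0.16 (filterByExpr at a total of 15 and, in 3 libraries, a count of 10 adjusted for depth, TMM, quasi-likelihood F-test, no covariate, Benjamini-Hochberg over all tested genes, threshold 0.05). Each SE is the fold change over the root of F. The procedure was tested on simulated data. Alternatives used DESeq2 1.42.0, limma 3.58.1 on log2(TPM + 1) or log2(TPM + 0.1), other scalings and filters, a replicate block and each library left out. The fits on the 4 libraries low in ribosomal RNA and without the abundant noncoding RNAs were chosen after seeing the data. Samples were grouped by title. Counts of libraries of a group differed by far more than sampling noise. Some pairs across the groups, such as WT replicate 3 and MUT replicate 1, differed less than any pair within WT. MUT replicates 1 and 3 differed least of all pairs, and MUT replicate 2 differed widely from every other library.

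The 10 genes and the pathway lists were chosen with earlier results of these data known. The text names the 10 genes, the called genes of each list filled up to 3 with the most abundant tested ones, the nearest tested protein-coding neighbours of BMP4, ID1, ID2 and ID3, the 5 genes most like BMP4 and ID1, and EIF6. Other genes of the lists are given as counts. A result for 1 further called gene is left out. NOG, GREM1, ID4, BMP2 and the cell type markers are named as untested or for the check of the cells. Gene coordinates and promoters are from RefSeq (GRCh38.p14).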

Additional observations from a re-analysis of the deposited data

How the results depend on the processing

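BMP4 and ID3 kept their direction in all 18 settings, but these reuse the libraries that chose the genes, so this is no further evidence. ID1, ID2 and the receptors, which were never called, changed sign with library size alone. Genes called numbered 283, against 284 with DESeq2's size factors, 108 with library size alone, 1195 with no low-count filter, 462 with a minimum of 1 CPM, 760 by the DESeq2 Wald test, 395 in the 4 libraries low in ribosomal RNA and 273 without the abundant noncoding RNAs. Limma called 0 genes on log2(TPM + 1) (144 at an unadjusted p below 0.05), 8 on log2(TPM + 0.1), and 0 on log2(TPM + 1) with no minimum (1556 at an unadjusted p below 0.05). The minimum of 1 TPM left 2853 genes, 4 of them in the set. Leaving out 1 library gave 27 to 442 called genes (30, 27 and 61 without WT replicates 1, 2 and 3, and 40, 442 and 40 without MUT replicates 1, 2 and 3), 0 to 2 of the 10 genes, and 0 to 3 of the other pathway genes. Of the 10 genes, BMP4 and ID3 were called in the fit reported, 0 with library size alone (1 at an unadjusted p below 0.05), and 0, 0 and 0 in the 3 TPM settings. They were both called under every other setting that kept all libraries, and in the 4 libraries low in ribosomal RNA. Of the other BMP pathway genes 3 were called, 4 with no low-count filter (USP15 added, named here after its values were seen), 1 (MSX2) with library size alone, 2 (MSX1 and MSX2) with the replicate block and 0, 0 and 0 in the TPM settings. TGIF1, called in the fit reported, changed sign in the 3 TPM settings, as did some genes that were not called, ID1 and ID2 among them. The TGIF1 values were 0.0397, 0.0537 and 0.0397 under log2(TPM + 1), log2(TPM + 0.1) and log2(TPM + 1) with no minimum. The median of all genes in these fits was 0.3647, 0.4943 and 0.0254. TGIF1 thus lay below the median in the first 2 fits and above it in the third. The cause was not tested. The deviations of same-numbered libraries from their group means had correlations of -0.29, -0.04 and 0.22, and those of differently numbered ones -0.32 to 0.37. With group means of 3 libraries these values cannot decide whether the numbers pair libraries. The labels do not say that they do, so no pairs were taken. With the replicate block 296 genes were called, including BMP4 and ID3. Counts below about 40 per library limit SMAD7 and the untested ligands and antagonists.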

Other observations

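In the neighbouring TGF-beta and activin branch, which signals through SMAD2 and SMAD3, 15 of 23 listed genes were tested and 2 were called, or 13.3% against 1.91% of all tested genes. This list too was chosen with earlier results of these data known, so nothing is read from the share. TGIF1, a corepressor of SMAD2 and SMAD3, was at 29.6, 26.9 and 27.4 CPM in WT and 19.9, 17.005 and 19.3 CPM in MUT, lower in every MUT library (log2 fold change -0.58, SE 0.12, adjusted p = 0.0472 by edgeR, 0.00270 to 0.937 over the alternatives). TGIF1 was not called in any fit with 1 library left out, and its direction turned in the 3 TPM settings (0.0397 to 0.0537). The median of all genes in these 3 settings was 0.0254 to 0.4943. The latent TGF-beta binding protein gene LTBP3 had a value of -0.22 (SE 0.13) and was not called (adjusted p = 0.405, 0.319 to 0.747). The median of the 15 genes was -0.17, against -0.01 for all tested genes.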
